A study of Mus musculus with 17 samples.

Results

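Unsorted mouse cortex was set against an artificial reference built from its purified cells, the equal-weight mean of 7 cell types. The comparison used all 17 libraries of the series, 3 of whole cortex and 14 purified libraries, 2 for each type. The purified types were neurons, endothelial cells, microglia, astrocytes and 3 stages of the oligodendrocyte lineage, labelled as precursor cells, as newly formed and as myelinating oligodendrocytes. Every library was made from polyA RNA of cerebral cortex from mice whose strain is given as FVN/Swiss, and the labels name no age, sorting marker or animal. Replicate libraries are therefore not known to come from separate animals, and p-values measure the spread between libraries, which may be technical. Levels are FPKM, fragment counts scaled by transcript length and by the number of mapped fragments. For each gene the 7 group means were averaged in FPKM with equal weight, which is called the purified mean here, and the difference is the mean log2(FPKM + 1) of the whole cortex libraries minus log2(purified mean + 1). The log2(FPKM + 1) scale understates differences of genes with low levels. The purified type with the highest mean FPKM is called the source type of the gene.

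Cerebral cortex is made of neurons, which signal through synapses, and of several classes of non-neuronal cells. Astrocytes take up transmitter and ions, oligodendrocytes develop from precursor cells and wrap axons in myelin, microglia are the resident macrophages, and endothelial cells line the vessels and form the blood-brain barrier. Tissue also holds cells outside the purified classes, among them ependymal cells of the ventricle wall, mural cells around vessels and fibroblasts of the meninges. Neurons keep part of their mRNA in dendrites and axons, away from the cell body.

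The summed FPKM of the whole cortex libraries lay between 230166 and 231959, within the range of 205621 to 389838 over all libraries, and the depth in reads is unknown. Pearson correlations of log2(FPKM + 1) between replicates were 0.992 to 0.994 in whole cortex and 0.956 to 0.997 in the purified types. A value of 0.1 FPKM, the lowest in the files, stood for between 30.8% and 45.1% of genes in a library, and whole cortex had the fewest such genes. The gene tables of whole cortex carry a different abbreviation in their headers, WB, than the sample titles, so regional genes were read as a check that was chosen after values were seen. Emx1, a transcription factor of the dorsal forebrain, stood at 7.08, 8.58 and 6.34 FPKM in the 3 whole cortex libraries. All 3 cerebellar genes and all 7 midbrain, hindbrain and spinal cord genes read were listed at 0.1 FPKM in each whole cortex library, among them Gabra6 of cerebellar granule cells and En1 of the midbrain. Of 5 hypothalamic genes read, 1 was at 0.1 FPKM in each whole cortex library, and the highest value among the 5 was 0.282 FPKM.

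Most genes stood near the purified mean in whole cortex, and the genes that did not came from few source types. Of 22462 genes in the files, 14011 reached 1 FPKM in at least 2 libraries and were tested, and 85.5% of these lay within a log2 difference of 1. The median difference over all genes tested was 0.06. Genes were called at an adjusted p under 0.05 (limma, Benjamini-Hochberg adjustment over all genes tested) and a log2 difference of at least 1 in either direction. By that rule 1022 genes (7.29%) were higher and 1003 genes (7.16%) were lower in whole cortex. These shares are the background for all counts of list members against the purified mean at the deposited scaling. The adjusted p alone was under 0.05 for 7392 genes, 4001 of them higher and 3391 lower. The even split rests on the deposited scaling. Scaling libraries by median-of-ratios size factors gave 667 higher and 1737 lower genes with a median difference of -0.20, and scaling to a common FPKM sum gave 1209 higher and 653 lower genes with a median of 0.20.

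**Figure D1:**
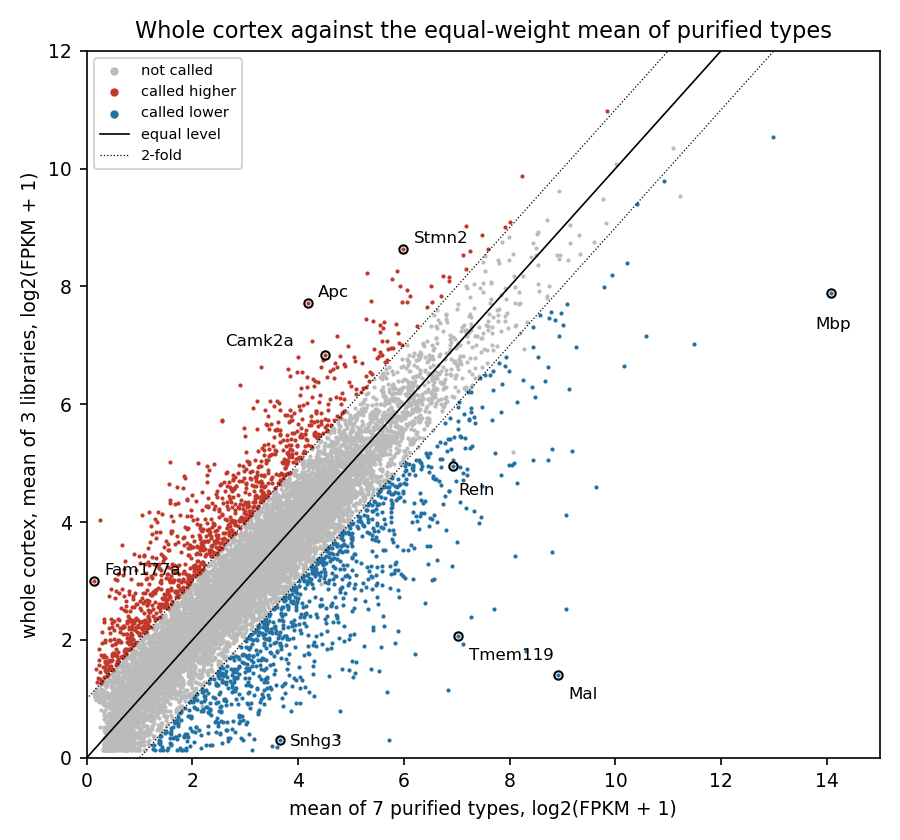
Each point is 1 of the 14011 tested genes, with the equal-weight mean of the 7 purified types on the horizontal axis and the mean of the 3 whole cortex libraries on the vertical axis, both as log2(FPKM + 1). The 1022 genes called higher lie above the upper 2-fold line and the 1003 called lower below the lower one, with myelin genes such as Mbp and Mal farthest from the line of equal level.

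Genes higher in whole cortex had mostly neurons as their source type. Neurons were the source of 2689 tested genes, of which 704 (26.2%) were higher and 25 (0.93%) lower, with a median difference of 0.55. These 704 genes made up 68.9% of all genes called higher. Of the other 318 higher genes, 220 also had a neuron level above the purified mean. The same share over all tested genes with a source other than neurons was not computed, so nothing is concluded from this count. Precursor cells were the source of 118 higher genes and astrocytes of 101, which is 5.54% and 3.94% of the genes with those sources.

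Genes lower in whole cortex had mostly microglia or myelinating oligodendrocytes as their source type. Microglia were the source of 540 lower genes and myelinating oligodendrocytes of 172, together 71.0% of all lower genes. The share of a source's genes that were lower was close in the 2 types, at 24.3% for microglia and 24.2% for myelinating oligodendrocytes. Endothelial cells were the source of 153 lower genes (5.50% of their genes) and newly formed oligodendrocytes of 79 (8.68%). Astrocytes gave 12 lower genes of 2566 and precursor cells 22 of 2130. These counts rest on the deposited scaling. Summed FPKM was highest in microglia, at 367933 and 389838, and was 328210 and 298079 in myelinating oligodendrocytes, against at most 231959 in whole cortex. Scaling to a common sum gave 653 lower genes in all. In these bulk libraries, fewer cells of a type and less RNA per cell cannot be told apart.

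The level that a gene of 1 type kept in the tissue gives a similar order of types on a scale of its own. Genes with a source level of at least 5 FPKM and at least 4-fold over the next type were expressed as a percentage of the source level. The equal-weight mean itself, in the same genes, was at a median of 16.3% to 20.6% of the source level, depending on the type, and cannot be under 14.29%. The 310 such genes of neurons had a median of 40.2% in whole cortex, with 42.6%, 37.8% and 41.1% in the 3 libraries. For these genes the equal-weight mean was at 17.8%. The 58 genes of precursor cells had a median of 23.5% against 19.5% for the equal-weight mean, and the 181 genes of astrocytes 22.6% against 18.5%. The 435 endothelial genes stood at 11.4% against 16.3%, the 16 genes of newly formed oligodendrocytes at 8.19% against 20.6%, the 539 microglial genes at 4.38% against 16.5% and the 10 genes of myelinating oligodendrocytes at 1.20% against 18.6%. The 3 libraries differed little beside these gaps, since the microglial median was 4.34%, 4.54% and 4.33% and the endothelial median 10.8%, 11% and 12.4%. All these percentages use the deposited scaling, in which the summed FPKM of microglia, myelinating oligodendrocytes and endothelial cells was above that of whole cortex.

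**Figure D2:**
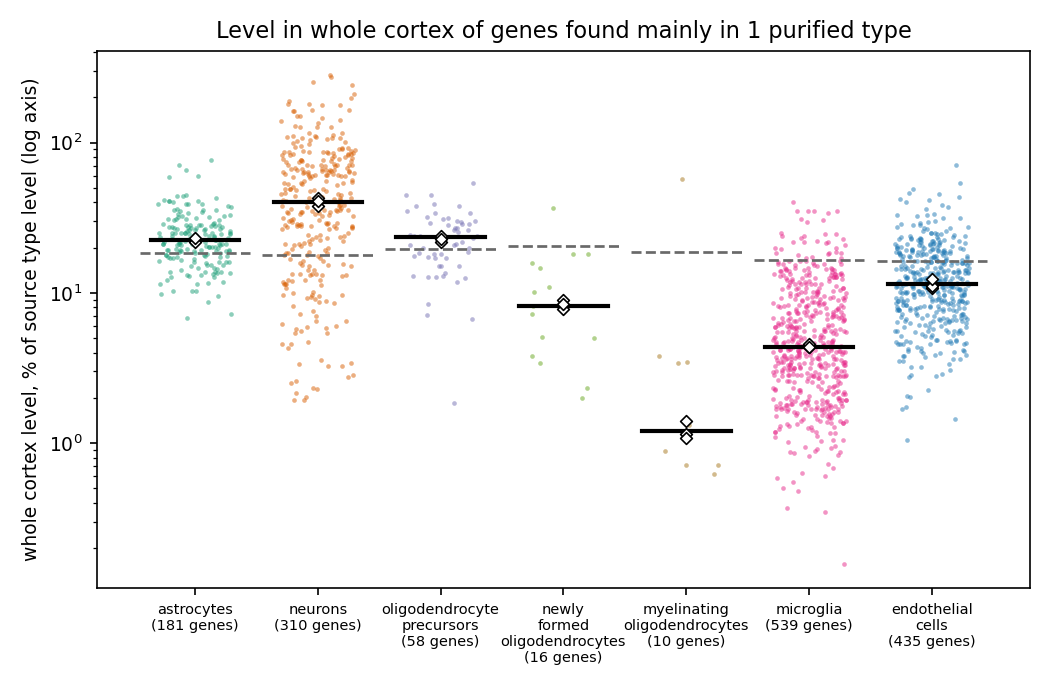
Each point is a gene with a source level of at least 5 FPKM and at least 4-fold over the next purified type, placed by its source type, and its height is the whole cortex level as a percentage of the source level on a log axis. Black bars are medians over genes, diamonds the median in each of the 3 whole cortex libraries, and dashed lines the median of the equal-weight mean in the same genes. The whole cortex medians of astrocytes, neurons and precursor cells lie above their dashed lines and those of the other 4 types below.

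Within a source type the genes did not keep a single percentage. Among genes with a source level of at least 20 FPKM and a 4-fold margin, those of astrocytes ran from 8.75% for Grin2c, a glutamate receptor subunit, to 76.6% for Gfap, the intermediate filament of astrocytes. Those of microglia ran from 0.158% for Gdf15, a stress-responsive growth factor, to 40.3% for Tpm3, a tropomyosin. Those of endothelial cells ran from 1.44% for Ttr, the thyroid hormone carrier transthyretin, to 46.3% for Ccl19, a chemokine. The value of Ttr rested on whole cortex replicate 2, without which it was 0.299%. Those of neurons ran from 1.94% for Lhx5, a developmental transcription factor, to 180% for Mpped1, a metallophosphoesterase-domain gene, and 7 of 148 such genes of neurons were above 100%. No gene of another source type passed 100% under these limits.

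General markers of neurons were higher in whole cortex, 12 of 15 against 7.29% of all genes, with a median difference of 1.99. Stmn2, a tubulin-binding protein of growing axons, stood at 397, 418 and 380 FPKM in whole cortex and at 312 and 464 FPKM in neurons, with 1.19 to 20.3 FPKM in the other purified libraries. Whole cortex and neurons overlapped for Stmn2, and the difference from the purified mean of 62.4 FPKM was 2.65 (SE 0.40, limma adjusted p = 6.33e-05). Rbfox3, the antigen NeuN of mature neurons, read 26.3, 31.2 and 23.7 FPKM in whole cortex and 19.3 and 16.8 FPKM in neurons. Every whole cortex library was above both neuron libraries for Rbfox3, and the difference was 2.54 (SE 0.26, adjusted p = 2.1e-06). Nefl, the light neurofilament subunit, read 23.6, 26.8 and 19.2 FPKM against 9.05 and 3.47 FPKM in neurons, again with no overlap, and its difference was 2.76. Snap25, a SNARE protein of synaptic vesicle fusion, was on the other side, at 97.6, 107 and 94.5 FPKM below the 117 and 179 FPKM of neurons, with a difference of 1.78 from the purified mean.

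Genes of cortical projection neurons were higher for 11 of 18 members, with none lower and a median of 1.43. Neurod6, a transcription factor of projection neurons, stood at 17.2, 15.7 and 18.2 FPKM in whole cortex and at 7.53 and 5.86 FPKM in neurons. It was above all 14 purified libraries, with a difference from the purified mean of 3.0 (SE 0.09, limma adjusted p = 3.33e-11). Fezf2, Bcl11b and Cux2, transcription factors of deep or upper layers, were also higher, by 2.03, 1.74 and 1.12. Tbr1, a transcription factor of deep layers, was not called, at 10.7, 11 and 12.3 FPKM below the 42.8 and 41.3 FPKM of neurons, with a difference of 0.73.

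Several genes with neurons as source were far above neurons in whole cortex. Adcy1, a calcium-stimulated adenylyl cyclase, stood at 75.9, 96.2 and 69.0 FPKM in whole cortex against 25.9 and 30.9 FPKM in neurons. Camkv, a kinase-like protein of synapses, stood at 99.3, 105 and 91.3 FPKM against 35.2 and 28.9 FPKM, and Gnal, a stimulatory G-protein alpha subunit, at 53.3, 60.7 and 43.4 FPKM against 14 and 15.7 FPKM. All 3 were above every purified library, with differences of 3.44, 3.34 and 3.16 (limma adjusted p-values of 2.21e-08, 4.35e-06 and 3.54e-09). Nov, a secreted matricellular protein, stood at 21.4, 24.2 and 26.9 FPKM against 10.6 and 7.04 FPKM in neurons and differed by 3.08.

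Part of this projection neuron signal had its highest purified level outside the neuron libraries. Camk2a, the alpha subunit of the synaptic kinase CaMKII, stood at 103, 178 and 80.5 FPKM in whole cortex and at 10.2 and 10.4 FPKM in neurons. Its purified levels reached 72.9 FPKM in precursor replicate 2, 79.6 FPKM in myelinating replicate 2 and 45.4 FPKM in microglia replicate 2, and were 18.7 and 14.1 FPKM in replicate 1 of the first 2 groups. The whole cortex libraries were above all purified libraries, and the difference was 2.33 (SE 0.45, adjusted p = 0.000607). Slc17a7, the vesicular glutamate transporter of cortical projection neurons, showed the same layout, with 87.3, 107 and 95.8 FPKM in whole cortex and 38.9 and 39.1 FPKM in precursor and myelinating replicate 2. Nrgn, a calmodulin-binding protein of dendrites, stood at 283, 390 and 244 FPKM in whole cortex, 35.9 and 34.4 FPKM in neurons and 64.8 and 108 FPKM in microglia. Leaving out precursor replicate 2 and myelinating replicate 2, an alternative chosen after the data were seen, gave 1073 higher and 986 lower genes. The origin of these transcripts in libraries other than neurons was not tested.

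Interneuron genes were split. Of 16 members, 5 were higher, none was lower and the median was 0.65. Vip, the peptide of a class of cortical interneurons, stood at 9.15, 8.15 and 9.0 FPKM in whole cortex, above the 6.91 and 6.90 FPKM of neurons, with a difference of 2.02. Gad2 and Slc32a1, which make and load the transmitter GABA, were each higher by 1.13 although whole cortex was below both neuron libraries. Gad2 read 9.64, 8.15 and 8.09 FPKM against 21.5 and 20.1 FPKM, and Slc32a1 read 18.7, 16.1 and 17.3 FPKM against 59.2 and 38 FPKM. Without neuron replicate 2 the difference of Slc32a1 was 0.89, under the threshold of 1. A pair of peptide genes with very high levels in purified neurons were not called. Npy, neuropeptide Y, stood at 76.4, 48.7 and 63.6 FPKM in whole cortex against 685 and 608 FPKM in neurons, and Sst, somatostatin, at 112, 81.6 and 90.1 FPKM against 805 and 607 FPKM. Their whole cortex levels were 9.73% and 13.4% of the neuron level, where the median gene of neurons was at 40.2%. Median-of-ratios scaling gave 3 higher interneuron genes.

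Synaptic genes were higher on both sides of the synapse. Among components of synaptic vesicles and their release machinery 16 of 23 were higher and none lower, with a median of 1.16. Cplx2, a complexin that clamps vesicle fusion, stood at 89.2, 118 and 76.1 FPKM in whole cortex against 68.4 and 56.4 FPKM in neurons, with no overlap and a difference of 2.56 (SE 0.29, limma adjusted p = 4.65e-06). Among postsynaptic density genes 14 of 21 were higher and none lower, with a median of 1.15. Camk2b, the beta subunit of CaMKII, stood at 85.9, 98.8 and 81.0 FPKM against 61.4 and 59.4 FPKM in neurons, and Dlg4, the scaffold PSD-95, at 105, 146 and 89.0 FPKM against 63.5 and 56.7 FPKM. Both were above every purified library, by 2.64 and 1.75 over the purified mean. Median-of-ratios scaling gave 10 higher vesicle genes and 9 higher postsynaptic genes.

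Receptors and ion channels were split between higher members and members without a call. GABA receptor subunits were higher for 10 of 14 members with a median of 1.23, led by Gabra5, the alpha5 subunit, at 18.1, 14.2 and 17.3 FPKM against 6.09 and 5.68 FPKM in neurons. Glutamate receptor genes were higher for 10 of 24 members with a median of 0.81. Grin1, the obligate NMDA receptor subunit, stood at 36.7, 38.9 and 40.7 FPKM, below the 63.0 and 64.0 FPKM of neurons, and was 1.48 above the purified mean. Gria2, an AMPA receptor subunit, had astrocytes as source at 180 and 155 FPKM and was not called, with 73.3, 63.8 and 80.3 FPKM in whole cortex and a difference of 0.33 (SE 0.32, adjusted p = 0.413). Voltage-gated ion channels were higher for 11 of 25 members and lower for 1. The lower one, Kcna1, a potassium channel subunit, stood at 1.47, 1.70 and 1.52 FPKM in whole cortex and at 23.3 and 10.8 FPKM in newly formed and 20.4 and 23.4 FPKM in myelinating oligodendrocytes, with a difference of -1.49. Median-of-ratios scaling lowered the counts of higher genes to 6 GABA receptor, 5 glutamate receptor and 5 ion channel genes.

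mRNAs known from dendrites and axons and genes of the neuronal cytoskeleton were mostly higher. Of 15 neurite mRNAs 10 were higher, with a median of 1.94. Arc, an immediate-early gene whose mRNA travels to dendrites, was an exception at 6.14, 4.98 and 5.19 FPKM in whole cortex against 15.1 and 17.1 FPKM in neurons, and was not called. Of 16 cytoskeleton and axon transport genes 11 were higher and 1 lower, with a median of 1.37. Kif1a, a kinesin motor that carries synaptic vesicle precursors, stood at 299.9, 381 and 251 FPKM in whole cortex and at 126 FPKM or less in every purified library. The lower gene, Tubb4, a beta tubulin, stood at 119, 133 and 121 FPKM in whole cortex, close to the 104 and 111 FPKM of neurons and below the 1021 to 1175 FPKM of newly formed and myelinating oligodendrocytes. The difference of Tubb4 was -1.48 (SE 0.16, limma adjusted p = 4.08e-06). Neuropeptides and their processing enzymes were higher for 12 of 23 members with none lower and a median of 1.03.

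**Figure D3:**
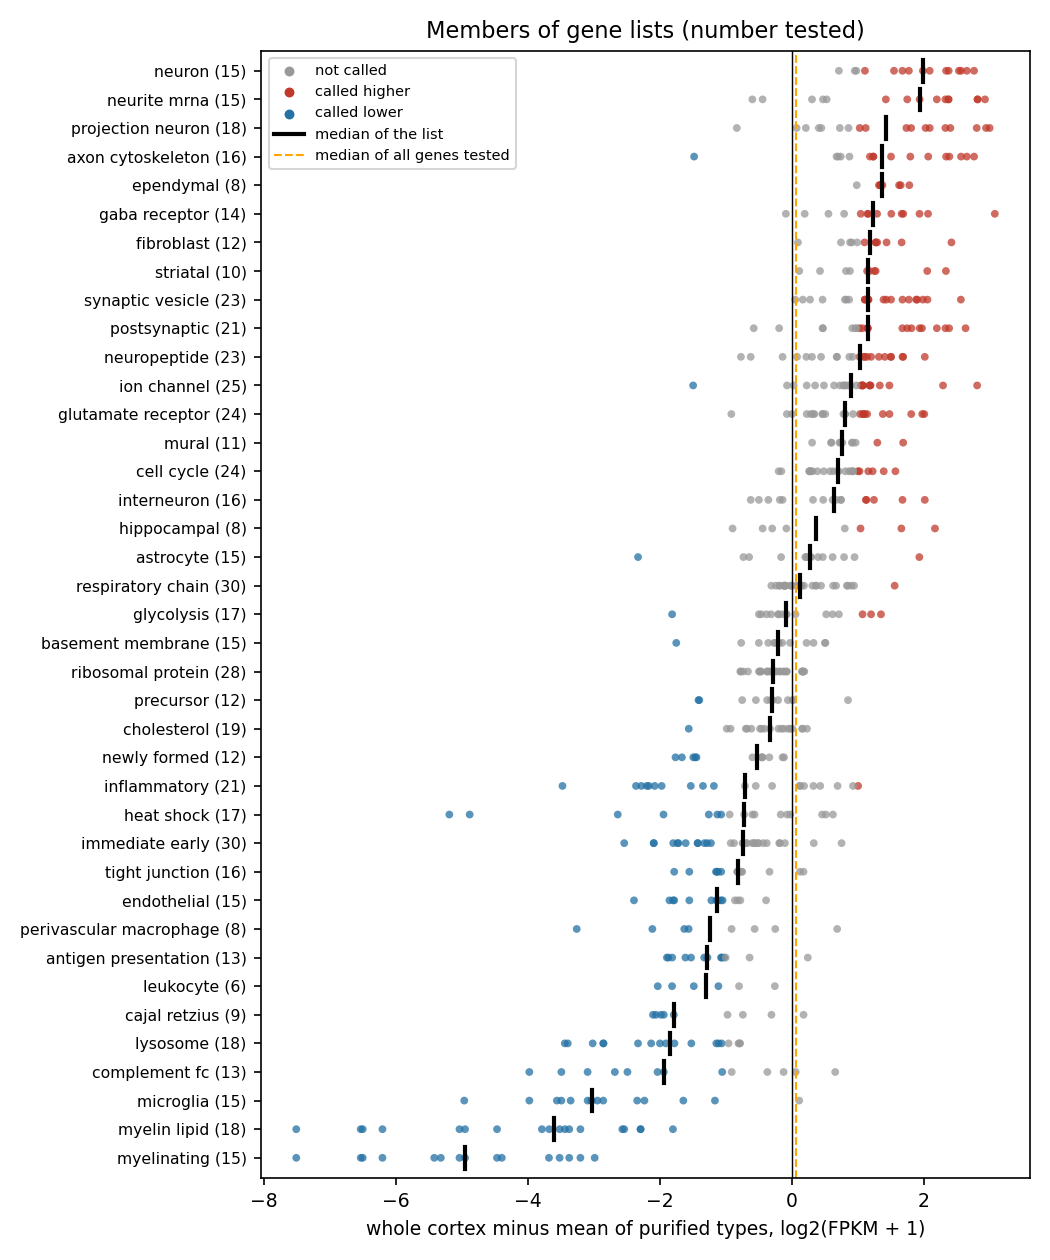
Each point is a member of a gene list, placed by its difference between whole cortex and the purified mean on the log2(FPKM + 1) scale, with red for members called higher, blue for lower and grey for no call. Black bars are list medians, which run from -4.95 for genes of myelinating oligodendrocytes to 1.99 for general neuron markers, beside the median of 0.06 of all genes tested (dashed).

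Genes of ependymal cells and fibroblasts, which were not purified, were mostly higher in whole cortex. Ependymal genes, which build motile cilia, were higher for 7 of 8 tested members with a median of 1.36. Rsph1, a protein of the ciliary spoke, stood at 3.61, 2.99 and 4.36 FPKM in whole cortex. Its purified level was highest in astrocyte replicate 2, at 2.64 FPKM, with 0.312 FPKM in astrocyte replicate 1 and at most 0.487 FPKM in the other libraries. Whole cortex lay above all of them, with a difference of 1.78 (SE 0.20, adjusted p = 4.19e-06). The same astrocyte library had the most Dynlrb2, a dynein light chain, and Foxj1, the regulator of ciliated cells, at 3.80 and 8.99 FPKM, and both overlapped with whole cortex, at 3.38, 2.85 and 4.44 FPKM for Dynlrb2 and 6.92, 6.25 and 8.20 FPKM for Foxj1. Without that library Rsph1, Dynlrb2 and Foxj1 were still called. Summed over the ependymal list, whole cortex held 21.0 to 28.9 FPKM and the purified libraries 0.80 to 20.1 FPKM.

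Fibroblast genes were higher for 7 of 12 members with a median of 1.19. Igf2, a growth factor made by the meninges, stood at 63.7, 58.2 and 63.4 FPKM in whole cortex and at 43.5 and 48.7 FPKM in precursor cells, its source type, with a difference of 2.42 (SE 0.38). Fmod, the proteoglycan fibromodulin, stood at 2.91, 3.05 and 3.09 FPKM and at 0.679 FPKM or less in every purified library. Slc13a4, another higher member, had a purified group mean of at most 0.482 FPKM. Both passed the filter of 1 FPKM only through whole cortex, so they could only come out higher. The precursor libraries held the most of this list, with a sum of 140.1 and 225 FPKM against 118 to 127 FPKM in whole cortex. Dcn, the proteoglycan decorin, stood at 24.2 and 34.8 FPKM in precursor cells and was not called, at a difference of 0.89, which became 1.09 and a call without precursor replicate 2. Mural cell genes were higher for 2 of 11 members (6 with a common sum), and the endothelial libraries held most of them. Rgs5, a regulator of G-protein signalling in pericytes, stood at 71.5, 71.0 and 93.5 FPKM in whole cortex and 185 and 204 FPKM in endothelial cells, which is 40.4% of that level where the median endothelial gene kept 11.4%. Abcc9, a subunit of the pericyte potassium channel, stood at 8.31, 8.16 and 10.1 FPKM against 11.4 and 13.8 FPKM in endothelial cells and was higher by 1.69.

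Markers of astrocytes and precursor cells stood close to the purified mean. Of 15 astrocyte genes 1 was higher and 1 lower, with a median of 0.28, and of 12 precursor genes none was higher and 2 were lower, with a median of -0.30. Gfap stood at 101, 89.7 and 97.9 FPKM in whole cortex and 106 and 145 FPKM in astrocytes, a difference of 1.94 (SE 0.17, limma adjusted p = 3.76e-07). Outside the list Fabp7, a fatty acid carrier of radial glia and astrocytes, stood at 973, 837 and 1015 FPKM against 1237 and 1977 FPKM in astrocytes and was higher by 1.63. S100b, a calcium-binding protein used as an astrocyte marker, differed by -2.33, and its source type was myelinating oligodendrocytes, at 446 and 384 FPKM against 19.5, 25.9 and 21.6 FPKM in whole cortex. Among cell cycle genes 6 of 24 were higher and none lower, with a median of 0.71. Mki67, the proliferation antigen, stood at 7.56, 6.69 and 8.82 FPKM in whole cortex, overlapping with precursor replicate 1 at 7.72 FPKM and above all other purified libraries.

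Myelin genes were the lowest group in whole cortex. All 15 genes of myelinating oligodendrocytes and all 18 genes of the myelin protein and lipid list were lower, against 7.16% of all genes, with medians of -4.95 and -3.59. Mal, a proteolipid of compact myelin, stood at 1.33, 1.95 and 1.68 FPKM in whole cortex. In purified cells it stood at 2666 and 2456 FPKM in myelinating oligodendrocytes, 1019 and 497 FPKM in newly formed ones and 26.4 and 26.0 FPKM in endothelial cells. Whole cortex was below these 6 libraries and below precursor cells, at 4.83 and 2.68 FPKM, and the difference was -7.50 (SE 0.24, limma adjusted p = 4.28e-11), the largest in size of the 14011 genes tested.

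Mbp, myelin basic protein, stood at 204, 331 and 192 FPKM in whole cortex against 114159 and 74692 FPKM in myelinating oligodendrocytes, which is 0.257% of that level. Mog, a surface protein of mature myelin, stood at 1.67, 3.90 and 2.35 FPKM against 1791 and 1632 FPKM. Opalin, a protein of mature oligodendrocytes, stood at 0.10, 0.458 and 0.17 FPKM against 297 and 237 FPKM, so 1 whole cortex library was at the lowest value of the files. Their differences were -6.20, -6.50 and -5.41. Cnp and Ugt8a, enzymes that are made from earlier stages on, kept more, at 2.13% and 2.72% of the myelinating level and differences of -3.51 and -3.37. Genes of newly formed oligodendrocytes were lower for 5 of 12 members with a median of -0.52. Enpp6, a marker of that stage, stood at 8.70, 9.01 and 9.56 FPKM in whole cortex against 214 and 151 FPKM in newly formed oligodendrocytes, 4.99% of that level.

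**Figure D4:**
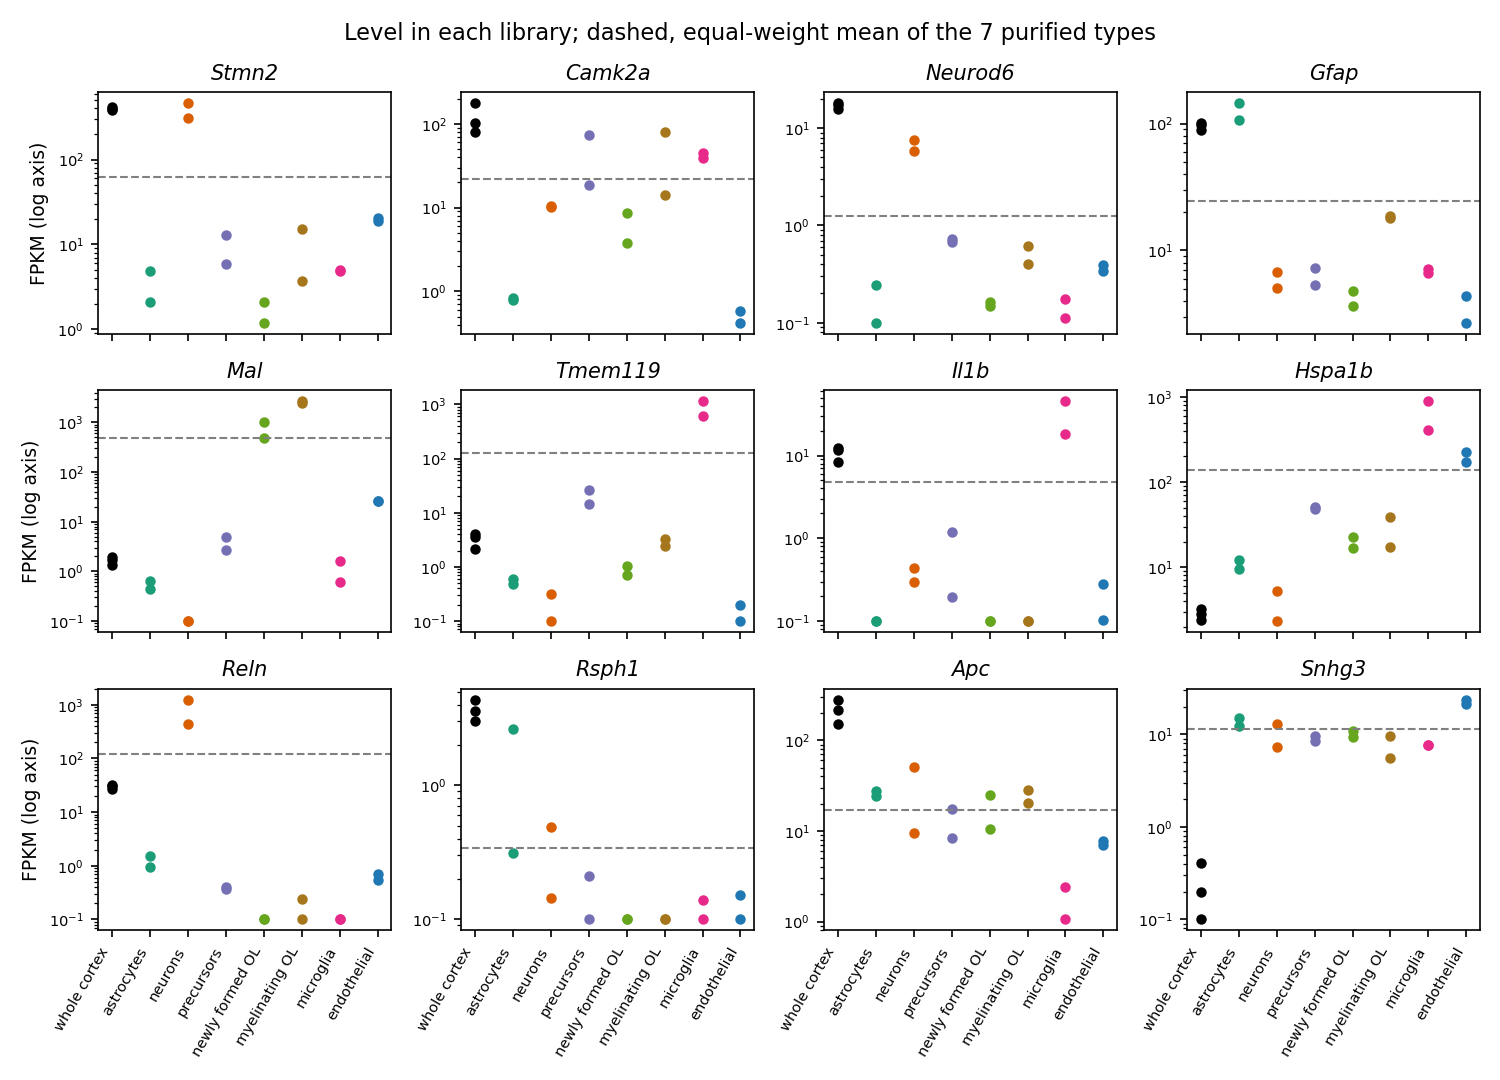
Each panel shows the FPKM of 1 gene in all 17 libraries on a log axis, with the 3 whole cortex libraries in black at the left, the purified types in colour and the purified mean as a dashed line. Neurod6, Camk2a and Apc are above every purified library in whole cortex, and Snhg3 is below every one.

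Microglial genes were lower, to very different degrees. Of 15 markers 14 were lower, with a median of -3.03. Tmem119, a surface protein of resident microglia, stood at 2.16, 4.05 and 3.60 FPKM in whole cortex and 617 and 1143 FPKM in microglia, a difference of -4.96 (SE 0.28, limma adjusted p = 5.89e-09). P2ry12, the ADP receptor of resident microglia, stood at 20.3, 31.0 and 26.5 FPKM against 375 and 286 FPKM, a difference of -1.16. Whole cortex was below both microglial libraries for each. The whole cortex level was 0.372% of the microglial level for Tmem119 and 7.84% for P2ry12,. Csf1r, the receptor that microglia need to survive, stood at 34.4, 40.6 and 36 FPKM against 2502 and 3462 FPKM, which is 1.24%. Microglial genes were also present in precursor libraries, where Csf1r stood at 137 and 69.7 FPKM. The call of P2ry12 was lost without microglia replicate 1, at a difference of -0.999, and with a common sum, at -0.61.

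Inflammatory genes did not move as a block. Of 21 tested, 10 were lower and 1 was higher, with a median of -0.71. A common sum gave 8 lower and 3 higher, and against the mixture of purified types fitted to whole cortex the list gave 13 higher, 0 lower and a median of 1.81. The higher gene was Il1b, the cytokine interleukin-1 beta, at 11.7, 12.3 and 8.29 FPKM in whole cortex, 45.3 and 18.4 FPKM in microglia and 1.20 FPKM or less in other purified libraries. Its difference of 1.01 (SE 0.27, adjusted p = 0.00605) was close to the threshold of 1. The call was lost without precursor replicate 2 (0.99), microglia replicate 2 (0.59), whole cortex replicate 1 (0.94) or whole cortex replicate 2 (0.91), and with median-of-ratios scaling (0.37). Whole cortex was at 33.8% of the microglial level for Il1b. Tnf, tumor necrosis factor, stood at 9.34, 18.5 and 24.1 FPKM against 498 and 565 FPKM in microglia, and Ccl3, a chemokine, at 62.9, 76.4 and 67.1 FPKM against 3157 and 1713 FPKM, with differences of -2.19 and -2.36. Genes of the lysosome were lower for 14 of 18 members with a median of -1.84, complement and Fc receptor genes for 8 of 13 with a median of -1.94, and antigen presentation genes for 10 of 13 with a median of -1.27. None of these 3 lists had a higher member, and a common sum gave 6 lower antigen presentation genes. Ctsd, the lysosomal protease cathepsin D, stood at 140.2, 137 and 147 FPKM in whole cortex, within the 82.8 to 404 FPKM of the purified types other than microglia, which were at 8291 and 11006 FPKM.

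Endothelial genes were lower by less. Of 15 markers 11 were lower, with a median of -1.13, and of 16 genes of tight junctions and barrier transport 6 were lower, with a median of -0.82. Cldn5, the main claudin of the blood-brain barrier, stood at 129.9, 143 and 155 FPKM in whole cortex against 3237 and 3552 FPKM in endothelial cells, 4.20% of that level and a difference of -1.78 (SE 0.51, limma adjusted p = 0.00961). Ly6c1, a surface antigen of endothelium, kept 2.74%, at 21.8, 28.9 and 31.1 FPKM against 967 and 1025 FPKM. Cdh5, the cadherin of endothelial junctions, kept 8.30% at 14.8, 15.3 and 15.4 FPKM against 192 and 174 FPKM, and with a difference of -0.78 was not called. The count of lower endothelial markers was 13 with median-of-ratios scaling and 5 with a common sum, and that of tight junction and transport genes 11 and 2.

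Heat shock and immediate-early genes were lower in whole cortex, or not called. Of 17 heat shock and stress response genes 7 were lower and none was higher, with a median of -0.72. Median-of-ratios scaling gave 10 lower and a common sum 5. Hspa1b, an inducible HSP70 chaperone, stood at 3.26, 2.84 and 2.38 FPKM in whole cortex. Its purified levels were 414 and 891 FPKM in microglia, 170.4 and 226 FPKM in endothelial cells, 48.3 and 51.6 FPKM in precursor cells and 5.27 and 2.32 FPKM in neurons. Whole cortex overlapped with neurons and lay below the other 12 purified libraries, and the difference was -5.19 (SE 0.30, adjusted p = 6.47e-09). Hspa1a, its near-identical neighbour on chromosome 17, read 5.44, 3.72 and 3.70 FPKM and differed by -4.88, and how fragments were divided between the 2 genes is uncertain. Hspb1, the small chaperone HSP27, stood at 3.04, 4.03 and 4.17 FPKM against 151 and 180 FPKM in endothelial cells, a difference of -2.63. The 4 other lower genes belong to protein quality control in the endoplasmic reticulum or its signalling, Herpud1, Atf4 and Ddit3, and to HSP70 co-chaperones, Bag3, with differences of -1.94, -1.13, -1.25 and -1.07. Without whole cortex replicate 3 the difference of Bag3 was -0.87 and was not called. Hsp90aa1 and Hspd1, chaperones with high levels in resting cells, were not called, with differences of 0.52 and 0.46.

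The promoter windows of heat shock genes are shown for the presence of the core of the heat shock element, written GAANNTTC, which reads the same on both strands and is in capitals. The windows run from 250 bases before to 50 after the transcription start in the RefSeq table.
Hspa1b (chr17:34959189-34959488, GRCm38.p6, minus strand): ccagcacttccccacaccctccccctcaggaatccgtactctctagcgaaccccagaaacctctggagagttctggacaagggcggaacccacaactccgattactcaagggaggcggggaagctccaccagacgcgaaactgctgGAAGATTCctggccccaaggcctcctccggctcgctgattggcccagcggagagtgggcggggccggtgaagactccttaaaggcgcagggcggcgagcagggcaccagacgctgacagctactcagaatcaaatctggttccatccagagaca
Hspa1a (chr17:34972107-34972406, GRCm38.p6, minus strand): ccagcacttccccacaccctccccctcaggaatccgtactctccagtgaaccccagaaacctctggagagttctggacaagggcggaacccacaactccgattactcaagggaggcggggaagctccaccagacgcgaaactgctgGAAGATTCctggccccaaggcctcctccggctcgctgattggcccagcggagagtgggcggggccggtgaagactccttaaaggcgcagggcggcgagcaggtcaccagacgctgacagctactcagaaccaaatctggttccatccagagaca
Hspb1 (chr5:135887669-135887968, GRCm38.p6, plus strand): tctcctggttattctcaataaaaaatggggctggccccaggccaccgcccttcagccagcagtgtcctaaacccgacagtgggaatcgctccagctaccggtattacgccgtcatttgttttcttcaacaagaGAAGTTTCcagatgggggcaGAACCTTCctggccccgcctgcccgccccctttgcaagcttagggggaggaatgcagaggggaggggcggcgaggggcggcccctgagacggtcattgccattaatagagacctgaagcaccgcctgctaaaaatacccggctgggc
Hsph1 (chr5:149636287-149636586, GRCm38.p6, minus strand): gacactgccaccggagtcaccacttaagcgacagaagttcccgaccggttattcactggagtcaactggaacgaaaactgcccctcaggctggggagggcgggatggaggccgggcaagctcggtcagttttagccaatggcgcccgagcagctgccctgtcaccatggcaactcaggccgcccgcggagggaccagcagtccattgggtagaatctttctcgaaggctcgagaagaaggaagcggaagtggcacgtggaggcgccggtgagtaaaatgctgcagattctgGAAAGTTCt
The core was present in 4 of the 7 lower genes and in 4 of the 7 uncalled genes with a window in the table (10 uncalled in all). It was present in 7.86% of all 32851 windows. A gene was counted if any of its windows held the core, so the shares of genes and of windows are unlike measures. The windows of Hspa1b and Hspa1a differ at 4 bases and hold the core at the same place, 104 bases before the start, and that of Hspb1 holds it at 117 and 97 bases before. Hsph1, a co-chaperone whose core begins 41 bases after the start in the first of its 2 listed windows, was not called, at 28.0, 26.2 and 26.4 FPKM in whole cortex against a purified mean of 27.2 FPKM. A match of these letters describes the window and does not show a bound site.

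Of 30 immediate-early genes 12 were lower and none higher, with a median of -0.74. Median-of-ratios scaling gave 18 lower, and a common sum 10 lower and 1 higher. Jun, a subunit of the transcription factor AP-1, stood at 167, 177 and 186 FPKM in whole cortex against 1073 and 1225 FPKM in astrocytes and 701 and 502 FPKM in microglia, with a difference of -1.28 (SE 0.16, limma adjusted p = 9.65e-06). Atf3, a transcription factor induced by stress, stood at 71.4, 67.5 and 57.2 FPKM against 1545 and 878 FPKM in microglia and 524 and 492 FPKM in endothelial cells, a difference of -2.09. Fos, the partner of Jun, was at 538, 546 and 531 FPKM in whole cortex, below astrocytes at 3404 and 3588 FPKM and above all 3 stages of the oligodendrocyte lineage, and was not called at -0.74. Npas4, an activity-dependent gene of neurons, stood at 7.58, 3.89 and 2.76 FPKM against 78.7 and 87.0 FPKM in neurons. It was lower by this test, with a difference of -1.32 and 5.72% of the neuron level, while whole cortex was above all non-neuronal libraries except astrocyte replicate 2, at 3.18 FPKM.

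Among the 25 lower genes with neurons as source, 5 were genes of Cajal-Retzius cells, the early neurons of the cortical surface. Of 9 genes on that list 5 were lower and none higher, with a median of -1.78. Reln, the secreted guidance protein reelin, stood at 31.1, 27.1 and 32.1 FPKM in whole cortex against 442 and 1252 FPKM in neurons and 1.5 FPKM or less elsewhere, a difference of -1.98 (SE 0.30, limma adjusted p = 6.41e-05). Trp73, the p53 relative p73, stood at 1.98, 1.87 and 2.17 FPKM against 68.6 and 76.9 FPKM. Ebf3, Nhlh2 and Lhx5, transcription factors, were at 2.04%, 2.34% and 1.94% of the neuron level. Reln and Neurod6, both with neurons as source, thus lay on opposite sides of the purified mean.

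Housekeeping groups are given beside the 7.29% higher and 7.16% lower of all genes. None of 28 ribosomal protein genes was called in either direction, and 1 of 30 respiratory chain genes was higher. Their medians were -0.28 and 0.12, and the sign of both changed with the scaling, to 0.02 and -0.26. Median-of-ratios scaling gave 4 lower ribosomal protein genes, and a common sum gave 5 higher respiratory chain genes. Cholesterol synthesis genes gave 1 lower gene of 19, Ebp, at a median of -0.33, and with median-of-ratios scaling 6 lower genes at a median of -0.78. Glycolysis gave 3 higher genes and 1 lower of 17, and with median-of-ratios scaling 1 higher and 2 lower.

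A further set of genes had levels in whole cortex outside the range of all purified types. By the largest of 7 one-sided limma p-values, adjusted over all genes, and a distance from the nearest type of 1 or more on the log2 scale, 83 genes (0.592%) were higher than each type and 4 (0.0285%) lower. Median-of-ratios scaling gave 44 and 6. Neurons were the source of 48 of the 83. Apc, a regulator of beta-catenin, stood at 216, 282 and 151 FPKM in whole cortex and at most 50.5 FPKM in a purified library, with a purified mean of 17.1 FPKM and a difference of 3.54. Brp44l, a mitochondrial pyruvate carrier subunit, stood at 33.2, 32.4 and 28.7 FPKM against 0.607 to 3.91 FPKM, and Ube2v1, a ubiquitin-conjugating enzyme variant, at 51.1, 57.7 and 46.1 FPKM against 1.34 to 8.37 FPKM. Fam177a was listed at 0.1 FPKM in all 14 purified libraries and at 7.23, 6.89 and 6.96 FPKM in whole cortex. It passed the filter only through whole cortex, so it could only come out higher. Kcnj4, a potassium channel of forebrain neurons, stood at 8.70, 8.84 and 9.27 FPKM against at most 2.89 FPKM. For each of these genes the 3 whole cortex libraries were above all 14 purified ones. Apc missed the threshold against its nearest type without astrocyte replicate 2 (adjusted p = 0.0556) or myelinating replicate 1 (adjusted p = 0.0529). Over all genes tested, 495 (3.53%) had all 3 whole cortex libraries above all purified ones and 23 (0.164%) had them below.

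The genes lower than each type were Snhg3, Snhg8, 1810058I24Rik and 2610001J05Rik. Snhg3, a host transcript of small nucleolar RNA, stood at 0.196, 0.10 and 0.403 FPKM in whole cortex and at 5.52 to 23.8 FPKM in purified libraries, and Snhg8, another such host, at 3.46, 4.67 and 5.14 FPKM against 13.7 to 45.4 FPKM. The ranges did not overlap for either. The other 2 are transcripts named only by clone identifiers, and 1810058I24Rik stood at 1.76, 2.04 and 1.40 FPKM against 12.7 to 65.5 FPKM. 2610001J05Rik stood at 2.66, 3.16 and 2.65 FPKM against 8.71 to 32.8 FPKM. Isoform tables of whole cortex list 28407 entries and those of the purified types 28408, so the 2 kinds of library were not summarised against exactly the same entries. Preparation of tissue and of purified cells differs along with the comparison, and cell type and preparation cannot be told apart for these genes. Of 3812 genes whose purified group means lay within 3-fold of each other on the FPKM + 1 scale, 130 were higher and 10 lower than the purified mean. Together these were 3.67% of the 3812, beside 7.29% higher and 7.16% lower over all genes tested.

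The equal-weight mean is 1 of many possible references. A least-squares mixture with non-negative weights, fitted to whole cortex over all tested genes, gave precursor cells a weight of 0.25, astrocytes 0.219, neurons 0.196 and endothelial cells 0.0614, with 0.00659 for newly formed oligodendrocytes, 0.000897 for microglia and 0 for myelinating oligodendrocytes. The weights summed to 0.735 and are coefficients on FPKM, not cell fractions. Against this mixture 1164 genes (8.31%) were higher and 118 (0.842%) lower, with a median difference of 0.29 over all genes tested. The Pearson correlation across genes of log2(FPKM + 1) was 0.943 against 0.883 for the equal-weight mean. Only the mixture was fitted to these same whole cortex values, which favours it in that comparison. Of the 1022 genes higher than the equal-weight mean 780 were also higher than the mixture, and of the 1003 lower genes 78 were also lower. Averaging the types on the log2 scale in place of FPKM lowers the reference for genes of 1 type, and against that mean 2422 genes were higher and 110 lower. Mal, Mog and Hspa1b differed in the same direction there, while Mbp, Csf1r, Cldn5 and Reln were on the other side, by 0.39, 1.15, 3.53 and 3.19.

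Against the mixture, where 0.842% of all genes were lower and 8.31% higher, lower members numbered 1 of 15 for myelinating oligodendrocytes, 0 of 15 for microglia, 0 of 15 for endothelial cells, 0 of 18 for lysosome genes, 2 of 30 for immediate-early genes and 3 of 17 for heat shock genes. Cajal-Retzius genes were lower for 7 of 9, and general neuron markers higher for 11 of 15. The weights were fitted to these same whole cortex values, with 0.000897 for microglia and 0 for myelinating oligodendrocytes. A reference that nearly lacks a type leaves little room for lower calls of its genes and favours higher ones. The counts for these types are therefore not an independent test. A total of 41 genes lay below the equal-weight mean and above the mixture, 28 of them with microglia as source. Tnf differed by -2.19 from the equal-weight mean and by 2.49 from the mixture, and Ccl3 by -2.36 and 2.16. Tubb4 and Enpp6, of oligodendrocytes, differed by -1.48 and -1.76 from the equal-weight mean and by 1.15 and 2.06 from the mixture. Mal, Hspa1b and Reln were lower against both references, with mixture differences of -1.72, -2.95 and -2.43. Neurod6, Camk2a and Apc were higher against both, with mixture differences of 2.82, 2.96 and 3.69.

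**Figure D5:**
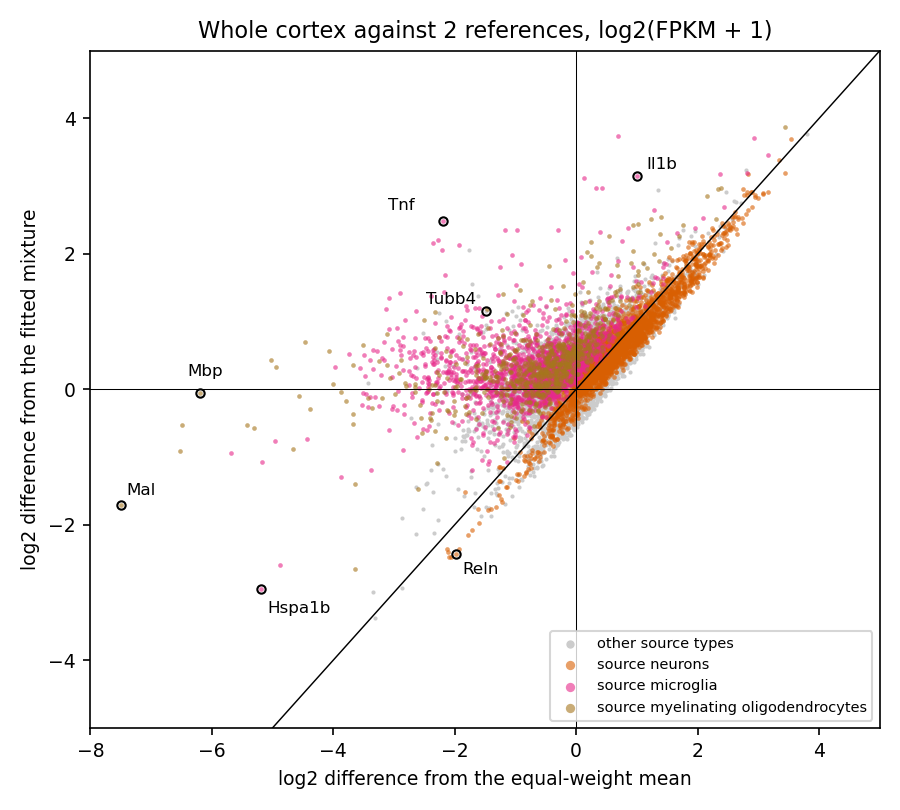
Each point is a tested gene, with its log2(FPKM + 1) difference from the equal-weight mean on the horizontal axis and from the fitted mixture on the vertical axis, coloured for 3 source types. Genes of microglia and myelinating oligodendrocytes are spread to the left along the horizontal axis, while genes of neurons follow the diagonal, and Tnf, at -2.19 and 2.49, is on opposite sides of the 2 references.

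Of genes with a whole cortex mean of at least 5 FPKM, the 8 with the widest range among the 3 whole cortex libraries were Nr4a3, Gpx3, Plaur, Mobp, Eif4a1, Plau, Emp1 and Tnf. Nr4a3, an immediate-early nuclear receptor, stood at 16.2, 8.50 and 4.24 FPKM, and Plau and Plaur, a protease of the plasminogen system and its receptor, at 10.7, 6.33 and 3.66 FPKM and at 11.6, 4.54 and 3.20 FPKM. Replicate 1 was the highest for all 3. Gpx3, a secreted glutathione peroxidase, stood at 7.10, 2.19 and 8.65 FPKM and Eif4a1, a translation initiation helicase, at 32.5, 10.8 and 18.7 FPKM, with replicate 2 the lowest for both. Emp1, a membrane protein, stood at 19.9, 8.99 and 7.37 FPKM. Mobp, a myelin gene, stood at 3.31, 10.6 and 2.90 FPKM, and replicate 2 was the highest of the 3 for Mbp, Mog and Mag as well. Tnf was highest in replicate 3, at 24.1 FPKM. The spread of Mobp was small beside its distance from its purified mean of 533 FPKM, and Nr4a3 was not called. The differences of Emp1 and Eif4a1 changed sign when 1 whole cortex library was left out, to -0.22 for Emp1 without replicate 1 and 0.19 for Eif4a1 without replicate 2.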

How the data were processed

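PolyA RNA of 3 whole cortex libraries and 14 purified libraries was sequenced by the submitters. The deposited FPKM values per gene were made by the authors with tools that the submitters' processing notes list as Bowtie 0.12.7, TopHat 1.3.3, CASAVA and Cufflinks 1.3.0, on build mm9, and 0.1 FPKM is the lowest value in the files. Read depth could not be recovered from the values, so no intervals for counting error are given. Sequences came from RefSeq (GRCm38.p6).

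Whole cortex was compared with the equal-weight mean of the 7 purified types on log2(FPKM + 1), with genes at 1 FPKM or more in at least 2 of 17 libraries, by limma 3.58.1 in R 4.3.3 with 8 groups. The log2 value of the purified mean was linearised at the group means. Calls need an adjusted p under 0.05 (Benjamini-Hochberg, two-sided) and a log2 difference of at least 1. Differences from each type used the largest of 7 one-sided p-values. The procedure was tested on simulated data. Tables and figures used Python 3.11.15, pandas 2.3.3 and matplotlib 3.10.9. Named genes were drawn from the 10 largest called differences in each direction and the 3 largest per source type, up to 4 members of each list, the 10 genes farthest above each type and the 8 genes of widest range among whole cortex libraries. Further list members, the highest and lowest genes of each source type and the regional genes were named after their values were seen. The gene lists and the comparison were chosen with earlier results of these data known. The labels do not pair same-numbered replicates, and the main fit did not pair them. Correlations of their deviations ran from -0.246 to 0.726 over 28 pairs of groups, with 7 above 0.1 and 5 under -0.1. With 2 libraries for each purified type, these values cannot decide whether some libraries share an animal or a batch. Isoform tables were used only for their number of entries.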

Additional observations from a re-analysis of the deposited data

How the results depend on the processing

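Counts higher and lower than the purified mean were within 1.5 times the reported 1022 and 1003 without a filter, with a filter of 5 FPKM, with a constant prior variance, with 5 classes, with 3 libraries against 2 mean profiles, and without single libraries, at 999 to 1043 and 972 to 1016. The fit with the replicate number as a block left out whole cortex replicate 3 and gave 1020 higher and 1016 lower genes. Leaving out that library without a block gave 1018 and 1016. The block entered the estimate of spread but not the differences, so these counts cannot show what pairing would change. A pseudocount of 0.1 gave 1547 higher genes and 7 lower than each type. Median-of-ratios scaling gave 667 higher, 1737 lower and 44 higher than each type, and a common sum 653 lower. A threshold of 2 gave 149, 275, 6 and 2 genes for the 4 counts. The mean of log2 values gave 2422 higher and 110 lower, fitted weights 118 lower, and the mean without microglia and endothelial cells 508 lower. Without single libraries, 59 to 94 genes were higher than each type and 4 to 6 lower. Of 110 named genes the following changed sign. With the mean of log2 values the differences were Ccl3 2.94, Cdh5 2.38, Cldn5 3.53, Csf1r 1.15, Eif4a1 0.0096, Enpp6 1.26, Fos 0.32, Grin2c 0.15, Hsph1 0.23, Ly6c1 1.83, Mbp 0.39, Nhlh2 0.37, Npas4 0.91, Npy 3.07, Nr4a3 0.38, P2ry12 1.72, Plau 0.48, Plaur 0.31, Reln 3.19, Sst 3.76, Tnf 1.90, Trp73 0.56, Tubb4 1.11 and Ugt8a 0.30. With fitted weights they were Ccl3 2.16, Cdh5 0.33, Cnp 0.65, Csf1r 0.32, Ebp 0.22, Eif4a1 0.62, Enpp6 2.06, Gria2 -0.067, Hsph1 0.12, Kcna1 0.27, Mag 0.33, P2ry12 0.51, Plau 1.44, Plaur 0.18, S100a9 0.033, Tnf 2.49 and Tubb4 1.15. Without microglia and endothelial cells they were Atf3 0.42, Ccl3 2.60, Cdh5 3.31, Cldn5 4.58, Csf1r 0.48, Eif4a1 0.13, Gria2 -0.15, Hspb1 0.82, Ly6c1 3.09, P2ry12 0.69, Plau 0.99, Plaur 1.88, S100a9 0.30, Tnf 3.07 and Ttr 0.0016. Tpm3 was at -0.24 with median-of-ratios scaling, and Hsph1, near 0 throughout, at 0.13 with a common sum, 0.30 with 5 classes and -0.077 to 0.040 without single libraries. Sst ran from -0.32 to 0.074, Eif4a1 from -0.56 to 0.19 and Emp1 from -0.22 to 0.44 without single libraries. Emp1 was at -0.048 with median-of-ratios scaling and -0.11 with 5 classes, and Eif4a1 at 0.088 with a common sum. The mean of log2 values gives less weight to a type's peak level. Fitted weights and the mean without microglia and endothelial cells give less weight to those cells, and fitted weights also to myelinating cells. By construction this lowers the reference for genes of the types concerned. The reference was higher for Gria2 with both of these weightings and for Emp1 with 5 classes. Other causes were not tested. Depth is unknown, so its limits cannot be given.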

Other observations

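Genes known from the striatum, the deep structure below the cortex, were higher for 6 of 10 members, against 7.29% of all genes, with none lower. Their median log2 difference was 1.16 beside 0.06 over all genes tested. Ppp1r1b, the phosphatase inhibitor DARPP-32, stood at 16.8, 12.1 and 13.8 FPKM in whole cortex against 8.34 and 6.65 FPKM in neurons, above every purified library. Drd2, the D2 dopamine receptor, was not called and stood below neurons, at 1.97, 1.48 and 1.48 FPKM against 7.38 and 4.23 FPKM. Some of these genes are also made in cortex, and whether striatal tissue was included was not tested. Genes of hippocampal subfields were higher for 3 of 8 members and lower for none, with a median of 0.36 that became -0.20 with median-of-ratios scaling.

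Nr1d1 and Per1, genes of the circadian clock, were lower in whole cortex by the limma test, with differences of -1.27 and -1.21. Nr1d1 stood at 28.6, 30.5 and 23.3 FPKM against 233 and 178 FPKM in astrocytes, and Per1 at 23.3, 18.5 and 14.9 FPKM against 78.9 and 109 FPKM in astrocytes and 103 and 74.5 FPKM in microglia. The labels give no time of day.

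Macrophages at the vessel wall and blood leukocytes had their genes highest in the microglial libraries. Of 8 macrophage genes 4 were lower, against 7.16% of all genes, and none was higher. Cbr2, a carbonyl reductase, stood at 0.854, 1.31 and 1.04 FPKM in whole cortex against 119 and 129 FPKM in microglia. Of 6 leukocyte genes 4 were lower, against the same 7.16%, and none was higher. S100a9, a granulocyte protein, stood at 0.986, 1.52 and 1.37 FPKM against 45.2 and 55.0 FPKM in microglia. Red cell genes varied between replicates. Summed over 4 tested genes, whole cortex held 716 to 1307 FPKM and precursor replicates 1 and 2 held 16984 and 1189 FPKM. None of these 4 genes was called, and globin genes are near-identical copies, so their separate levels are uncertain. Of 3 choroid plexus genes 1 was called, Ttr, at 0.10, 1.25 and 0.10 FPKM in whole cortex against 39.9 and 27.0 FPKM in endothelial cells.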
